A study of Danio rerio with 13 samples.

Results

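Among 13 RNA sequencing libraries of zebrafish muscle, 3 held transcripts of testis. They were chosen by a measured value, the level of ddx4, a germ cell RNA helicase gene (ENSDARG00000014373), at over 50 CPM, counts-per-million of all counts of a library. There was 1 of each genotype, namely replicate 5 of the wild type, replicate 1 of tert+/- and replicate 1 of tert-/-, and values of the 3 are given in this order throughout. The libraries came from muscle of male AB zebrafish (Danio rerio) aged 3 months, 5 of them wild type, 5 carrying 1 mutant allele of tert (tert+/-) and 3 with both alleles mutant (tert-/-). The catalytic subunit of telomerase is encoded by tert, the mutant allele carries a nonsense change, and the study used these fish as a model of ageing. The sources used here do not give the part of the body from which muscle was taken, nor whether the fish shared a clutch.

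The zebrafish testis holds germ cells in cysts. Spermatogonia divide by mitosis, spermatocytes pair and recombine their chromosomes in meiosis, and spermatids build a flagellum. Germ cells keep transposons silent through small RNAs bound to Piwi proteins, the piRNAs. Sertoli cells enclose the cysts and Leydig cells between them make androgens. Skeletal muscle is built of fast and slow fibres, whose RNA is dominated by genes of contraction, calcium handling and energy supply.

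The marker that chose the libraries, ddx4, lay at 116, 180.4 and 426 CPM in the 3 and at 0 to 3.71 (median 0.0955) CPM in the other 10. The library nearest above the threshold was wild type replicate 5 and the nearest below it was tert+/- replicate 5. The remaining markers of testis separated the libraries in the same way. The Piwi gene piwil1 lay at 126, 201 and 571 CPM against 0.0243 to 4.09 (median 0.184) CPM, and sycp3, of the protein axis of meiotic chromosomes, at 42.3, 150.5 and 145 CPM against 0 to 1.68 (median 0.177) CPM. The Leydig cell hormone gene insl3 lay at 29.2, 28.9 and 170.3 CPM against 0 to 4.2 (median 0.0372) CPM. The Sertoli cell hormone gene amh lay at 13.5, 20.6 and 30.5 CPM against 0.073 to 1.17 (median 0.345) CPM. For all 5 genes the 3 libraries did not overlap the other 10, which for ddx4 follows from the choice. Of 19407 genes that passed an expression filter, 32.2% lay above the other 10 in the same way. Per kilobase of gene length, piwil1 was at 31.3, 49.8 and 141 CPM per kilobase, ddx4 at 40.04, 62 and 146, insl3 at 31.3, 31.1 and 183, sycp3 at 33, 117 and 113 and amh at 4.17, 6.36 and 9.42. Markers of germ cells and of both somatic cell types of the testis were therefore present in each of the 3 libraries, and amh had the lowest level per length of the 5 genes in each.

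**Figure D1:**
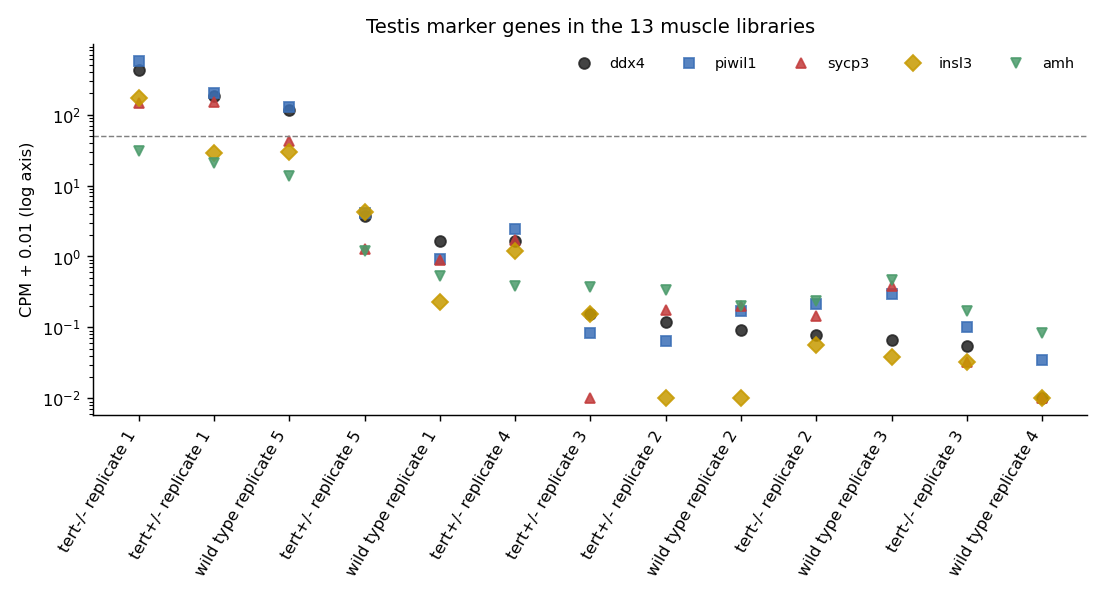
CPM of ddx4, piwil1, sycp3, insl3 and amh (log axis, 0.01 added so that zeros can be drawn) in each of the 13 libraries, ordered by ddx4, with a dashed line at the threshold of 50 CPM for ddx4. The 3 chosen libraries lie at ddx4 levels of 116, 180.4 and 426 CPM, and tert+/- replicate 5, the next, at 3.71 CPM.

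Among the other 10 libraries, 3 held traces of the same genes. In tert+/- replicate 5, ddx4 had 136 counts and insl3 154 counts, which is 3.71 and 4.2 CPM, and gsdf, a Sertoli cell growth factor gene, was at 10.1 CPM. In tert+/- replicate 4, ddx4 was at 1.62 CPM (77 counts) and insl3 at 1.2 CPM (57 counts). In wild type replicate 1, ddx4 was at 1.66 CPM (60 counts) and insl3 at 0.221 CPM (8 counts). The remaining 7 libraries held 0 to 4 counts of ddx4, at most 0.145 CPM. No gene with at least 10 counts in each of the 3 libraries, of 14175 such genes, was at 0 in all other 10, and 49 of them were at no more than 0.1 CPM in each of the other 10.

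The 3 libraries had total counts of 10585558, 14923701 and 29135279, against 27652851 to 47492321 in the other 10. Despite the lower depth of wild type replicate 5 and tert+/- replicate 1, genes at 1 CPM or more numbered 14220, 16373 and 16955, against 11466 to 12592 in the other 10. Correlations of log2 CPM across genes, which are not independent replicates, were 0.896 to 0.933 between libraries of the 3, 0.945 to 0.984 between libraries of the 10 and 0.783 to 0.903 between both sets. The label muscle fitted all 13 libraries, in that 74 genes of fast muscle fibres held 51.5%, 31.9% and 41.6% of counts in the 3 and 48.3% to 56.4% (median 52.2%) in the other 10. The transcript of tert was at 7.37, 15.8 and 4.63 CPM in the 3 and at 3.25 to 7.8 (median 5.00) CPM in the other 10, so that tert+/- replicate 1 held the highest level of the 13. Wild type replicates 1 to 4 were at 7.80, 4.30, 4.73 and 4.77 CPM, tert+/- replicates 2 to 5 at 5.24, 5.61, 5.71 and 5.39 CPM, and tert-/- replicates 2 and 3 at 3.25 and 4.62 CPM. The lowest level was in a tert-/- library, but the other two tert-/- libraries were within the range of the wild types. Since RNA of a nonsense allele can still be counted, the levels are a partial check of the labels.

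Of 19407 genes that passed an expression filter, 6257 (32.2%) lay above all other 10 libraries in each of the 3 on plain CPM, and 43 (0.222%) lay below all of them. Of 27056 genes with any count, 7414 (27.4%) lay above. These counts follow from how the libraries were chosen and are given as a description, with no test. Of the genes kept, 1534 passed the filter only with the 3 libraries included, and 1252 of these were among the 6257 above. The number above was 10890 in place of 6257 where wild type replicate 5 was left out and a gene had to lie above the other 10 in the remaining 2 libraries. Scaling changed both counts. With factors of the TMM method (a trimmed mean of log ratios), which scale libraries so that the bulk of genes shows no difference, 3366 genes (17.3%) lay above and 2043 (10.5%) below. The median difference over all genes kept, the mean log2 of CPM plus 0.5 over the 3 libraries minus that over the 10, was 0.67 on plain CPM, −0.07 with TMM factors and 1.08 where levels were set relative to the sum of the fast muscle fibre genes.

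The genes above held little of the RNA. They took 5.20%, 10.2% and 12.8% of counts in the 3 libraries and 2.07% to 2.47% (median 2.22%) in the other 10. The 43 genes below took 8.27%, 7.08% and 9.50% of counts, against 11.8% to 13.9% (median 13.1%). Of the 6257 genes above, 65.2% had their highest level in tert-/- replicate 1, 29.3% in tert+/- replicate 1 and 5.43% in wild type replicate 5. The lowest of the 3 levels was that of wild type replicate 5 for 83.8% of them.

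In wild type replicate 5 a few genes held most of the counts that exceeded the other 10. Counts over the highest of the other 10 made up 15.5%, 16.2% and 14.5% of the 3 libraries, but 10 genes held 74.3% of this excess in wild type replicate 5, 25.8% in tert+/- replicate 1 and 4.04% in tert-/- replicate 1. The leading ones in wild type replicate 5 were 2 genes without a symbol, the giant sarcomere gene ttn and short non-coding RNAs. The gene ENSDARG00000080337 was at 40242, 6012 and 772 CPM against at most 5981 CPM, and ENSDARG00000082753 at 26622, 7618 and 694 CPM against at most 3503 CPM. The titin copy ttn (ENSDARG00000000563) was at 18601, 1080.5 and 899.7 CPM against 744 to 2818 (median 1173) CPM. The copy ttn (ENSDARG00000028213) was at 21867, 5541 and 4452 CPM against 4821 to 7619 (median 6632) CPM. The signal recognition particle RNA gene rn7sl1 was at 4823, 732 and 0.343 CPM against 1.61 to 347 (median 31.5) CPM. These genes lay over the other 10 in wild type replicate 5, and none of them did in tert-/- replicate 1. In tert+/- replicate 1 the 2 genes without a symbol and rn7sl1 lay over the other 10 as well, at lower levels. The ttn copies did not. These genes were chosen after their values were seen, and whether RNA quality or library preparation differed in wild type replicate 5 was not tested.

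Genes of germ cell identity lay above in 11 of 17 members kept, of 24 found (64.7%, against 32.2% of all genes). Of the 17, 2 were kept only with the 3 libraries. Of all genes kept in that way 1252 of 1534 lay above, so the filter raises the share of each list that holds such members. The gene ddx4, which chose the libraries, is 1 of the 11. With TMM factors 10 lay above (58.8%, against 17.3% of all genes). The list's median log2 difference was 1.82, against 0.67 over all genes kept. After ddx4 the largest differences were those of tdrd6, which organises germ granules, and dazl, an RNA-binding regulator of translation in germ cells. The former lay at 31.6, 124 and 296 CPM against 0.0907 to 2.56 (median 0.277) CPM, and the latter at 26.1, 89.99 and 112 CPM against 0 to 1.63 (median 0.0561) CPM. The gene dnd1, which protects germ cell messages from microRNAs, lay at 3.02, 5.36 and 8.24 CPM (at most 0.111 elsewhere) and was kept only with the 3 libraries. All 3 genes were without overlap between the libraries. Genes used as markers of spermatogonial stem cells in mammals did not show this. The GDNF receptor gene gfra1a was at 0.283, 0.268 and 0.206 CPM against 0.0553 to 0.514 CPM, id4 at 0.0945, 0.737 and 0.378 against 0.105 to 0.594 CPM, and zbtb16b at 6.61, 10.1 and 6.86 against 2.19 to 19.4 CPM, with overlap in each case. The translational repressor gene nanos3 did lie above, at 0.189, 0.335 and 0.24 CPM (at most 0.0287), but rested on few counts and did not pass the filter.

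The piRNA pathway lay above in 20 of 22 members kept, of 23 found (90.9%, against 32.2% of all genes). With TMM factors 17 did (77.3%, against 17.3%). The filter raises these shares, since 4 of the 22 were kept only with the 3 libraries. Its median log2 difference of 4.85 was above that of the germ cell identity list. Tudor domain genes, whose proteins bind Piwi proteins in germ granules, were among those with large differences. Levels of tdrd7a were 54.6, 159 and 298 CPM against 0.0227 to 3.21 (median 0.163) CPM, and those of tdrd1 were 20.2, 43.1 and 177 CPM against 0 to 1.01 (median 0) CPM. The second Piwi gene piwil2 lay at 17.9, 48.9 and 131 CPM (at most 2.96) and the helicase gene tdrd9 at 21.1, 51.5 and 125 CPM (at most 1.01). The endonuclease gene pld6 lay at 17.2, 54.5 and 58.4 CPM (at most 0.681) and rnf17 at 32.3, 57.9 and 155 CPM (at most 2.13). All 6 genes lay lowest in wild type replicate 5 and highest in tert-/- replicate 1. The members without a gap were prmt5, a methyltransferase gene that many cells express, at 11.1, 19.4 and 28 CPM against 4.83 to 11.7 CPM, and the chaperone gene hsp90aa1.1 at 841, 194 and 807 CPM against 246 to 1044 CPM. The latter was left out of the list's sum, since muscle expresses it strongly. The other 22 members found summed to 488, 1055 and 2117 CPM against 48.3 to 95.2 CPM.

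Meiosis genes lay above in 40 of 44 members kept, of 45 found (90.9%, against 32.2% of all genes). With TMM factors 38 did (86.4%, against 17.3%). The filter raises these shares, since 9 of the 44 were kept only with the 3 libraries. The median log2 difference was 4.18 and the sum of the list was 592, 1925 and 2553 CPM against 54.7 to 111 CPM. Members covered the steps of meiotic prophase. For cohesion, smc1b lay at 60.6, 122 and 255 CPM against 0 to 1.74 (median 0.194) CPM and the kleisin gene rad21l1 at 12.7, 49.3 and 69.98 CPM (at most 1.06). For the synaptonemal complex, which joins paired chromosomes, sycp1 of its transverse filaments lay at 49.4, 269 and 486 CPM against 0.793 to 8.86 (median 2.63) CPM. The axis gene hormad1 lay at 35, 125 and 126 CPM against 0.0227 to 2.13 (median 0.182) CPM. In all of these the groups of libraries were apart, and wild type replicate 5 was the lowest of the 3. For recombination, spo11, which cuts DNA, lay at 6.23, 19.4 and 17.6 CPM (at most 0.253) and dmc1, which carries out strand exchange, at 12.2, 51.4 and 32.1 CPM (at most 0.899). The crossover genes msh4 and msh5 lay at 2.74, 20.6 and 31.5 CPM (at most 0.295) and at 7.65, 30.4 and 28.5 CPM (at most 0.505). The cohesin subunit gene stag3 was at 4.53, 9.78 and 62.8 CPM (at most 0.572). Overlap was seen for mlh3, prdm9, sun1 and ccdc36. Of these, the mismatch repair gene mlh3 lay at 3.02, 8.91 and 12.3 CPM against 1.14 to 3.32 CPM and the histone methyltransferase gene prdm9 at 3.31, 9.98 and 11.7 CPM against 2.22 to 3.61 CPM. In both, only wild type replicate 5 lay inside the range of the other 10.

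Genes of cell division lay above in 70 of 73 members kept, of 75 found (95.9%, against 32.2% of all genes). With TMM factors 69 did (94.5%, against 17.3%). The median log2 difference was 3.68. The mitotic cyclin gene ccnb1 lay at 23, 60.6 and 86.7 CPM against 0.292 to 2.02 (median 0.724) CPM. The topoisomerase gene top2a lay at 54.8, 118 and 272 CPM against 1.68 to 8.34 (median 2.93) CPM, and the spindle motor gene kif11 at 24.1, 81.3 and 119.9 CPM (at most 3.57). No member lay below on any of the 3 scales. DNA repair genes lay above in 68 of 81 members kept (84.0%, against 32.2% of all genes), and in 52 with TMM factors (64.2%, against 17.3%). The homologous recombination gene palb2 lay at 11.1, 19.1 and 57.9 CPM (at most 1.72). Of 28 telomere maintenance genes 18 lay above (64.3%, against 32.2%), and 9 with TMM factors (32.1%, against 17.3%). The median log2 difference of this list was 1.17 on plain CPM and 0.32 with TMM factors, against 0.67 and −0.07 over all genes kept. Those above on plain CPM include terb1 and terb2, which tether telomeres to the nuclear envelope in meiosis, at 28.2, 107 and 125 CPM (at most 7.14) and at 7.75, 18.5 and 16.2 CPM (at most 1.6). The targeted gene tert was not among them.

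Genes of the sperm axoneme and flagellum made up the testis list with the largest sum. Of 111 members kept, of 113 found, 103 lay above (92.8%, against 32.2% of all genes). With TMM factors 101 did (91.0%, against 17.3%). The filter raises these shares, since 12 of the 111 were kept only with the 3 libraries. The median log2 difference was 4.94 and the sums were 1388, 4176 and 6368 CPM against 215 to 366 CPM. The radial spoke gene rsph4a lay at 37.2, 77.2 and 102 CPM against 0 to 1.77 (median 0.183) CPM. The dynein arm gene dnai1 (ENSDARG00000100081) lay at 26.5, 78.3 and 96.6 CPM against 0 to 2.21 (median 0.14) CPM, and tekt1, whose protein lies inside doublet microtubules, at 23.2, 58.2 and 84.3 CPM against 0.0227 to 1.83 (median 0.295) CPM. In these 3 genes the levels ran from wild type replicate 5 up to tert-/- replicate 1 and none overlapped. Members without a gap included the tubulin gene tubb4b, which other cells use as well, at 149, 291 and 351 CPM against 116 to 225 CPM, the dynein assembly gene spag1a at 4.44, 4.96 and 6.08 CPM against 3.76 to 6.95 CPM, and tppp2 at 0.661, 0.067 and 0.0686 CPM against 0.0553 to 0.906 CPM. With TMM factors spag1a lay below.

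Intraflagellar transport, which carries cargo along the growing flagellum, lay above in 31 of 33 members kept (93.9%, against 32.2% of all genes). None of the 33 needed the 3 libraries to pass the filter. With TMM factors 30 lay above (90.9%, against 17.3%). The median log2 difference was 3.13. The tubulin carrier gene ift81 lay at 28.1, 61 and 139 CPM against 0.703 to 2.55 (median 1.11) CPM and the kinesin gene kif17 at 9.26, 25.5 and 55.9 CPM against 0 to 0.926 (median 0.0818) CPM. The first was above 0.5 CPM in all 13 libraries and the second was at 0 in at least 1. The members without a gap were bbs1, of a complex at the base of cilia, and the kinesin copy kif3c (ENSDARG00000017162). The former was at 4.16, 11.6 and 16.1 CPM against 1.6 to 4.59 CPM. Transcription factors of ciliated cells and spermatids lay above in 14 of 17 members kept (82.4%, against 32.2% of all genes). With TMM factors 11 did (64.7%, against 17.3%), and 2 of the 17 were kept only with the 3 libraries. Those above on plain CPM include foxj1, the master regulator of motile cilia, at 15.2, 37.3 and 57.1 CPM (at most 1.01), and rfx2 at 16.6, 43.8 and 51 CPM (at most 5.68). They also include cremb, of the CREM family, which mouse spermatids need, at 19.5, 111 and 98 CPM (at most 2.37). Of 5 genes for fusion of sperm with egg, 4 lay above (80%, against 32.2% of all genes). The filter raises this share, since 2 of the 5 were kept only with the 3 libraries. Among the 4 were dcst1 at 9.64, 54.8 and 48.2 CPM (at most 1.28), dcst2 at 11.6, 57.1 and 48.1 CPM (at most 0.99) and spaca6 at 2.55, 16 and 3.6 CPM (at most 0.316). These 3 genes and tmem81 were highest in tert+/- replicate 1, unlike most genes of the meiosis and axoneme lists.

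Somatic testis lists were less uniform. Of 29 Sertoli cell members kept, of 36 found, 13 lay above (44.8%, against 32.2% of all genes), with 4 kept only with the 3 libraries, and with TMM factors 11 lay above and 3 below. The median log2 difference was 0.83, against 0.67 over all genes kept, and 0.26 with TMM factors. The transcription factor gene dmrt1, which germ cells also express, lay at 29.6, 122 and 118 CPM against 0.189 to 7.3 (median 0.777) CPM. The growth factor gene gsdf lay at 25, 106 and 107 CPM against 1.95 to 10.1 (median 3.9) CPM. In these 2 genes tert+/- replicate 1 and tert-/- replicate 1 were nearly level, although ddx4 differed between them. The inhibin gene inha lay at 1.7, 2.68 and 13.6 CPM (at most 0.681), and the receptor gene for follicle stimulating hormone, fshr, at 0.283, 0.335 and 1.78 CPM (at most 0.0272). The fshr levels in wild type replicate 5 and tert+/- replicate 1, which had the lowest total counts, rest on few counts. The other 16 members kept did not separate, clu and cyp26b1 among them. The chaperone gene clu was at 6.61, 29 and 21.9 CPM against 11.8 to 34 CPM, and wild type replicate 5 lay under the range of the other 10. The retinoic acid degrading enzyme gene cyp26b1 was at 7.09, 10.8 and 9.92 CPM against 6.24 to 13.4 CPM. The sum of the list was 259.6, 683 and 729 CPM against 199 to 367 CPM, so that wild type replicate 5 was inside the range of the other 10.

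Of 42 members kept of the list for Leydig cells and sex steroid synthesis, of 43 found, 16 lay above (38.1%, against 32.2% of all genes), with 8 kept only with the 3 libraries, and with TMM factors 11 lay above (26.2%, against 17.3%) and 5 below (11.9%, against 10.5%). The list as a whole was thus near the shares of all genes. The median log2 difference was 0.76 on plain CPM and −0.06 with TMM factors, which turns its direction. Some genes of the steroid route lay above and others did not. The cholesterol carrier gene star lay at 20.4, 17.5 and 68.6 CPM against 0.0227 to 4.71 (median 0.266) CPM. The androgen synthesis gene cyp17a1 lay at 11, 10.2 and 53.2 CPM against 0 to 0.736 (median 0.0409) CPM. The gene cyp11c1, needed for 11-oxygenated androgens of fish, lay at 3.4, 8.24 and 22.1 CPM against 0.0549 to 1.44 (median 0.296) CPM. All 3 were highest in tert-/- replicate 1, and for star and cyp17a1 wild type replicate 5 was level with or above tert+/- replicate 1. The summed kidney and interrenal list was highest in tert-/- replicate 1 too, at 244 CPM against 40.5 to 127 CPM in the other 10. Which cells the steroid transcripts came from was not tested. The gene hsd3b1 lay at 1.61, 0.871 and 18.8 CPM (at most 0.409), and overlapped the other 10 with TMM factors. Other members did not separate, among them hsd17b3, which makes testosterone in mammals, at 3.02, 9.31 and 3.74 CPM against 2.81 to 10.3 CPM. The receptor gene for luteinising hormone, lhcgr, was at 0.472, 0.134 and 1.24 CPM against 0.0362 to 0.315 CPM, and only tert+/- replicate 1 lay inside that range.

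Genes named for ovary and oocyte lay above in 17 of 28 members kept, of 51 found (60.7%, against 32.2% of all genes). With TMM factors 13 lay above (46.4%, against 17.3%). However, 14 of the 28 were kept only with the 3 libraries. Of all genes kept in that way 1252 of 1534 lay above, so the filter itself raises the share of this list. The sum was 74.2, 176 and 168 CPM against 22.8 to 41.2 CPM. The members with the highest levels were elavl2, an RNA-binding protein gene, at 20.2, 51.9 and 59.21 CPM against 0 to 0.954 (median 0.0451) CPM, and org at 11.2, 13.1 and 19.8 CPM against 0 to 0.332 (median 0.0143) CPM. The germ plasm organiser gene buc lay at 2.74, 6.43 and 8.96 CPM (at most 0.295). Of other members the aromatase gene cyp19a1, which makes oestrogen in the ovary, was at 0.189, 0.134 and 0.172 CPM (at most 0.073), and the oocyte growth factor gene gdf9 at 0.472, 0.603 and 1.2 CPM (at most 0.0421). The yolk precursor gene vtg1 was at 0.756, 1.27 and 1.06 CPM (at most 0.0287). Levels of cyp19a1 rest on few counts in each of the 3. Retinoid metabolism, a pathway the study followed, lay above in 10 of 46 members kept (21.7%, against 32.2% of all genes), with 4 kept only with the 3 libraries. With TMM factors 6 (13.0%) lay above and 5 (10.9%) below, against 17.3% and 10.5% of all genes, so that the list was near or under the shares of all genes, and its median of 0.59 turned to −0.22. Of phototransduction genes 11 of 19 kept lay above (57.9%, against 32.2% of all genes), and 9 with TMM factors (47.4%, against 17.3%). The filter raises these shares too, since 8 of the 19 were kept only with the 3 libraries. The blue cone opsin gene opn1sw2 lay at 4.16, 21.3 and 21.8 CPM against 0 to 0.354 (median 0.0319) CPM, while the rod opsin gene rho (ENSDARG00000002193) had no count in the 3.

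**Figure D2:**
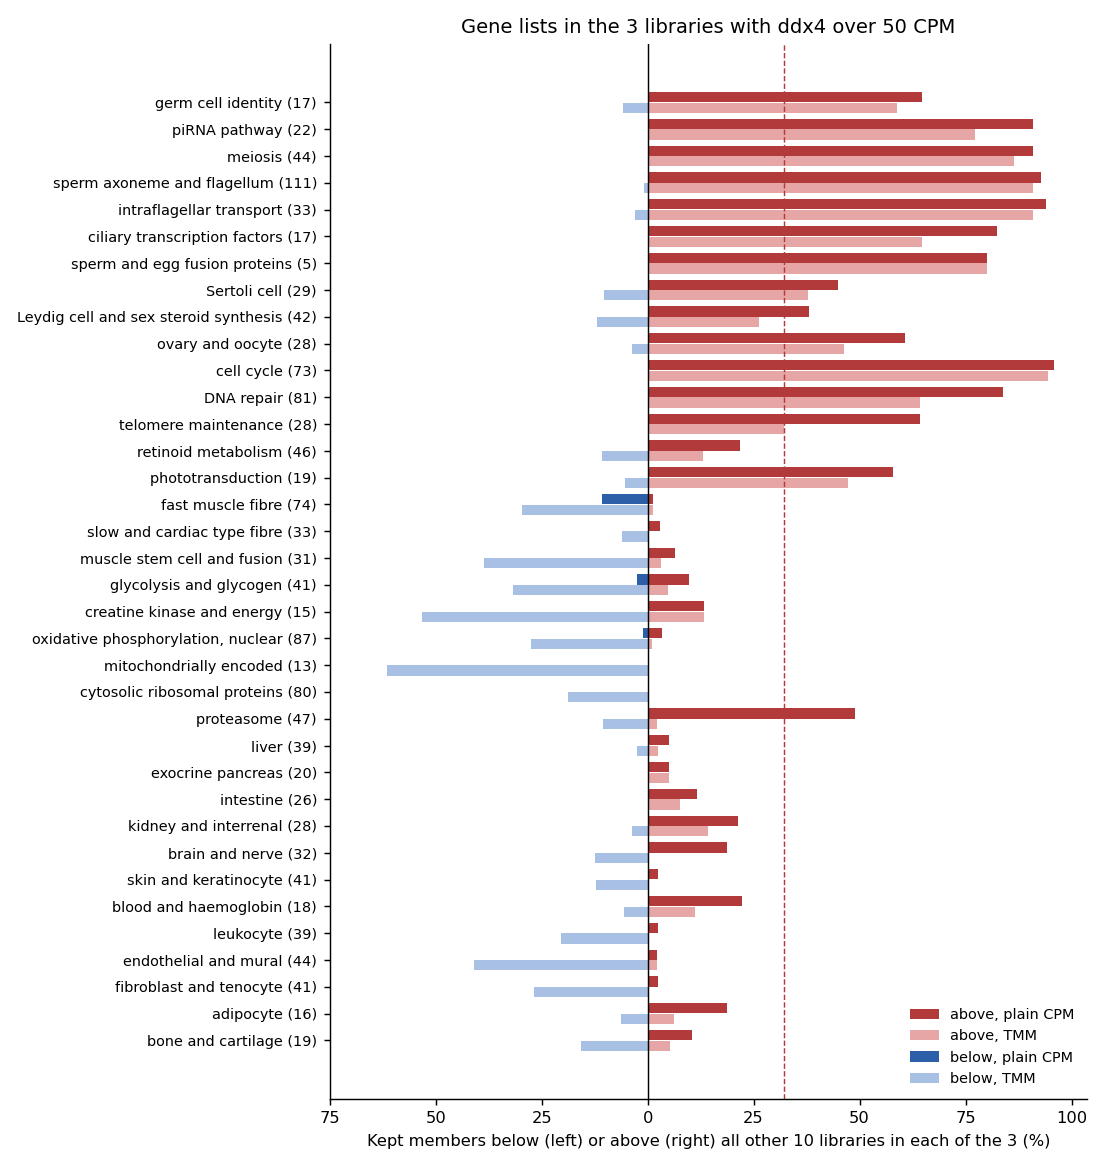
Share of kept members (%, number kept in brackets) of 36 gene lists that lay above (right) or below (left) all other 10 libraries in each of the 3, on plain CPM and with TMM factors, with a dashed line at 32.2%, the share above over all genes kept on plain CPM. The cell cycle, axoneme and intraflagellar transport lists reach furthest right on both scales, while bars to the left are longer with TMM factors than on plain CPM.

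Genes outside the lists with the largest differences included dnah5l, which encodes a dynein heavy chain, at 136, 407 and 627 CPM against 0.467 to 9.98 (median 1.57) CPM, and the alpha tubulin gene tuba7l at 213, 516 and 652 CPM against 2.09 to 13.9 (median 3.53) CPM. Both lay above on each scale. The RNA helicase gene ddx19a lay at 52.1, 129 and 194 CPM (at most 2.51), cngk, of a potassium channel gated by cyclic nucleotides, at 32.4, 99.6 and 217 CPM (at most 2.23) and hsf5, of the heat shock factor family, at 40.1, 104 and 113 CPM (at most 2.0). Genes with high levels among those above included the chaperone gene hsp90ab1 at 611, 1419.5 and 1502 CPM against 277 to 417 CPM. The chromatin gene hmgn2 lay at 188, 523 and 353 CPM against 28.1 to 68.2 CPM. The latter was highest in tert+/- replicate 1, and both genes had a level of at least 28.1 CPM in every library, so that the other 10 expressed them as well.

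Ratios between testis genes varied among the 3 libraries. Levels were set relative to ddx4 in the same library. This gene chose the libraries, and another denominator would multiply all ratios of a library by 1 factor, so that only the spread between genes does not depend on it. The ratio of piwil1 to ddx4 was 1.09, 1.12 and 1.34, a narrow range. For the synaptonemal complex gene sycp3 the ratio was 0.363, 0.834 and 0.341, and for sycp1 it was 0.424, 1.49 and 1.14. The highest of the 3 values was that of tert+/- replicate 1 for both, and it was so for dmc1 (0.105, 0.285 and 0.0754), dnah5l (1.17, 2.26 and 1.47), dmrt1 (0.254, 0.678 and 0.276), gsdf (0.215, 0.588 and 0.25) and spaca6 (0.0219, 0.0888 and 0.00846). The Leydig cell genes insl3, star and cyp17a1 were ordered the other way. The ratio was 0.251, 0.16 and 0.400 for insl3, 0.175, 0.097 and 0.161 for star and 0.0941, 0.0565 and 0.125 for cyp17a1, each lowest in tert+/- replicate 1. Not all of the list had this order, and the ratio of cyp11c1 was lowest in wild type replicate 5. Of the 16 Leydig list members that lay above, the ratio was highest in wild type replicate 5 for 6, in tert+/- replicate 1 for 3 and in tert-/- replicate 1 for 7. Ratios of amh were 0.116, 0.114 and 0.0717.

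Over the lists, only members that lay above were used. The ratio in tert+/- replicate 1 divided by that in tert-/- replicate 1 had a median of 1.92 for meiosis, 1.57 for the axoneme and 2.85 for fusion genes, 1.17 for the piRNA pathway and 0.605 for Leydig cells. All lists share the denominator, so only the differences between these medians are free of it, and they have no test. Each library is 1 fish of another genotype, so genotype, fish and library cannot be told apart here, and no error can be given.

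**Figure D3:**
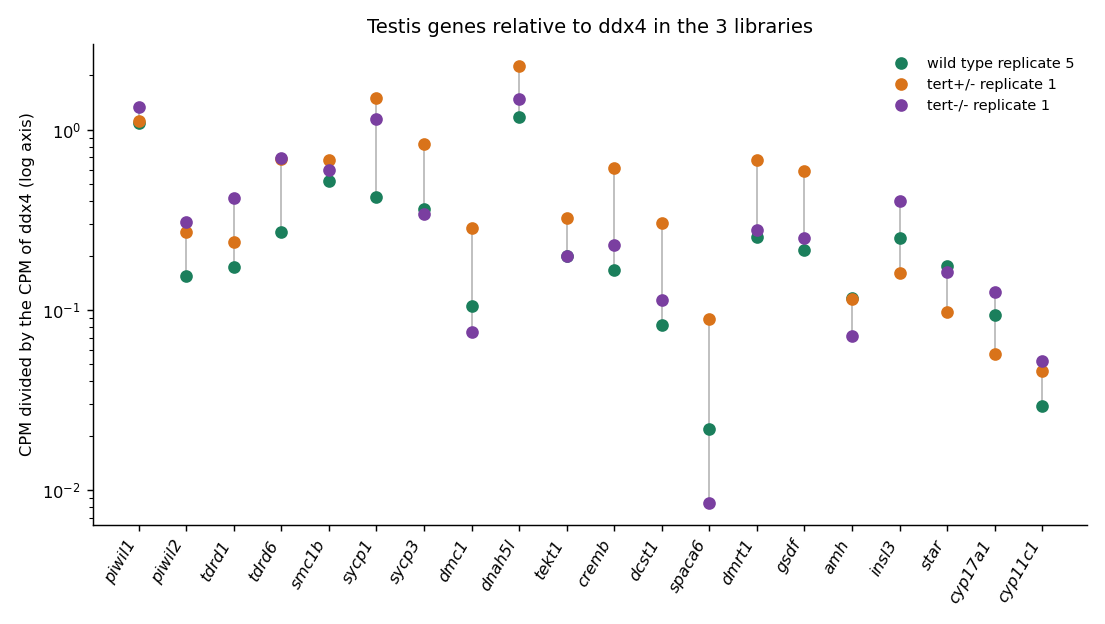
CPM of 20 testis genes divided by the CPM of ddx4 in the same library (log axis), for the 3 libraries, with a line joining the lowest and highest. Meiosis, flagellum and fusion genes such as dmc1 (0.105, 0.285 and 0.0754) are highest in tert+/- replicate 1, whereas insl3 (0.251, 0.16 and 0.400) is highest in tert-/- replicate 1.

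Most fast muscle fibre genes did not separate on plain CPM, but a larger share of them lay below than of all genes. Of 74 kept, 8 lay below (10.8%, against 0.222% of all genes), 1 above (1.35%, against 32.2%) and 65 neither. The median log2 difference was −0.45, against 0.67 over all genes kept. With TMM factors 22 lay below (29.7%, against 10.5% of all genes). Relative to the summed fast fibre genes 1 did, of 5 among all genes kept. The actin gene actc1b lay at 66517, 52569 and 73367 CPM against 89631 to 107076 (median 101713) CPM and was the 1 member below on all 3 scales. The fast troponin C gene tnnc2 lay at 6809, 8144 and 8852 CPM against 11192 to 14443 (median 12023) CPM, and the myosin light chain gene myl1 (ENSDARG00000014196) at 1662, 2301 and 2877 CPM against 3501 to 4920.4 (median 3911) CPM. The filament capping gene tmod4 lay at 279, 369 and 403 CPM against 541 to 785 (median 638) CPM. In tnnc2, myl1 and tmod4 wild type replicate 5 was the lowest of the 13. The remaining 4 members below were actn3a, myoz1, stac3 and smyd1 (ENSDARG00000009280), of the Z-disc, of excitation-contraction coupling and of myosin folding. In bulk samples fewer cells of a type and less RNA per cell cannot be told apart.

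Other abundant fibre genes did not separate. The fast myosin heavy chain gene myhc4 was at 69872, 39299 and 54293 CPM against 50568 to 74991 (median 59591) CPM, so that only tert+/- replicate 1 lay under the range of the other 10. The muscle creatine kinase gene ckma was at 11723, 7489 and 23047 CPM against 12977 to 29341 (median 25482) CPM, under the range in wild type replicate 5 and tert+/- replicate 1. Outside the list, the genes with the largest negative differences included cav4a, of the caveolin family of muscle membranes, at 6.9, 9.05 and 10.5 CPM against 14.3 to 26.7 (median 18.1) CPM, and igfn1.3 at 61.6, 135 and 143 CPM against 168 to 360.5 (median 219) CPM. The nucleic acid binding protein gene ybx1 lay at 1474, 2532 and 2923 CPM against 3088 to 4102 (median 3516) CPM and tmem38a, of a potassium channel of the sarcoplasmic reticulum, at 214, 276 and 316 CPM against 348 to 541 (median 444) CPM. The actin capping gene capzb lay at 114, 182 and 266 CPM against 267 to 385 (median 333) CPM, with tert-/- replicate 1 just under the range. Of these 5 only cav4a was below on all 3 scales. The 43 genes below became 183 without tert+/- replicate 1, 224 without tert-/- replicate 1, 80 without wild type replicate 5 and 100 without wild type replicate 1.

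Counted library by library, the muscle lists moved apart. Of the 74 fast fibre genes, 15, 45 and 20 lay under the lowest of the other 10, and 16, 4 and 3 over the highest. Of all genes kept 15.3%, 3.01% and 2.15% lay under the lowest, and 38.3%, 65.7% and 67.4% over the highest. The median log2 ratio to the median of the other 10 was −0.16, −0.88 and −0.30. The lowest of the 3 medians was that of tert+/- replicate 1. Slow and cardiac fibre genes showed medians of −0.41, −0.10 and −0.21, with 5, 3 and 1 of 33 under the lowest. Of 41 glycolysis and glycogen genes 12, 18 and 1 lay under the lowest, with medians of −0.27, −0.69 and 0.15. The pyruvate kinase gene pkm (ENSDARG00000099860) was at 503, 519 and 1251 CPM against 724 to 1785 (median 1521) CPM.

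Genes of the respiratory chain differed by genome in wild type replicate 5 and tert+/- replicate 1, and not in tert-/- replicate 1. In wild type replicate 5 the mitochondrially encoded list was low and the nuclear list was near the other 10. The 13 matched members, of 15 entries, of the mitochondrially encoded list held 3.99%, 18.3% and 7.86% of counts, against 7.93% to 14.2% (median 9.66%). Mitochondrial genes outside this list were not summed. In wild type replicate 5, 12 of the 13 lay under the lowest of the other 10, in tert+/- replicate 1 all 13 lay over the highest, and in tert-/- replicate 1 8 lay under the lowest. The cytochrome oxidase gene mt-co1 was at 11270.3, 55888 and 26551 CPM against 25569 to 45778 (median 30363) CPM. Of 87 nuclear genes of oxidative phosphorylation 28, 7 and 4 lay over the highest and 9, 41 and 21 under the lowest. In tert+/- replicate 1 mitochondrially encoded genes were thus high while nuclear ones were low (median log2 ratios to the median of the other 10 of 0.93 and −0.52). In wild type replicate 5 these medians were −1.84 and 0.16, and the nuclear list held 2.01% of counts, against a median of 2.03% in the other 10. In tert-/- replicate 1 they were nearly equal, at −0.31 and −0.32. Proteasome genes were over the highest in 55.3%, 74.5% and 91.5% of 47 members, against 38.3%, 65.7% and 67.4% of all genes. In each of the 3 at once 23 lay above on plain CPM, but with TMM factors 1 lay above and 5 below, where the list's median of 0.63 turned to −0.36. Cytosolic ribosomal protein genes were over the highest in 51.3%, 40% and 0% of 80 members, against the same 38.3%, 65.7% and 67.4% of all genes. Only in wild type replicate 5 was this over the share of all genes. In tert-/- replicate 1 22.5% lay under the lowest, against 2.15% of all genes.

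**Figure D4:**
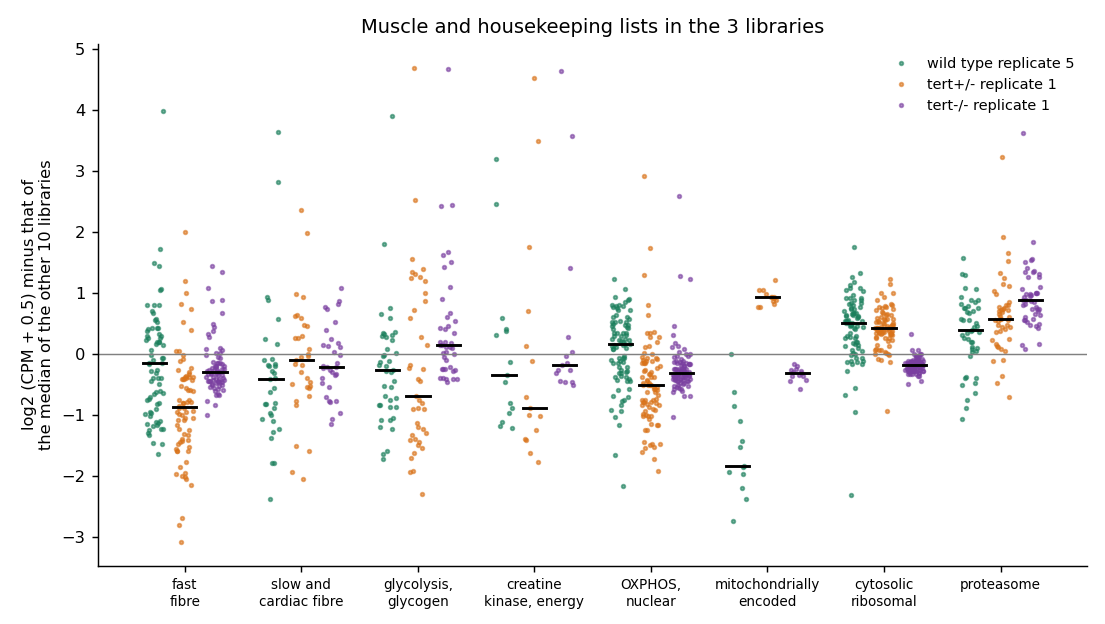
Difference of log2 (CPM + 0.5) from the median of the other 10 libraries for each kept member (point) of 8 muscle and housekeeping lists in each of the 3 libraries, with a black bar at the median (OXPHOS, oxidative phosphorylation). The 13 members of the mitochondrially encoded list lie at a median of −1.84 in wild type replicate 5 and 0.93 in tert+/- replicate 1, and fast fibre genes are lowest in tert+/- replicate 1 (median −0.88).

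Several families held a member that lay above beside members that did not. The creatine kinase gene ckb (ENSDARG00000069752), of brain and other tissues in mammals, lay at 157, 398 and 429.5 CPM against 11.4 to 34.6 (median 16.8) CPM, whereas ckma was at 11723, 7489 and 23047 CPM. The triosephosphate isomerase gene tpi1 has 2 copies. The copy ENSDARG00000025012 lay at 15.5, 27.3 and 26.8 CPM against 0.268 to 0.983 (median 0.574) CPM, and the other, ENSDARG00000040988, at 1045, 436 and 1075 CPM against 681 to 1484 (median 1148) CPM. For the cytochrome oxidase subunit gene cox5b, the copy ENSDARG00000015978 lay at 32.4, 51.5 and 37.3 CPM against 11.3 to 18.5 (median 15.2) CPM, and ENSDARG00000068738 at 203, 161 and 203 CPM against 193 to 325 (median 271) CPM. In each family the copy with the lower level in the other 10 was the one above. These families were chosen after their values were seen, and reads shared between copies could be split differently by the counting.

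Genes of the exocrine pancreas were high in tert-/- replicate 1. The summed exocrine pancreas list was at 22.5, 46.8 and 724 CPM against 7.17 to 53.7 CPM (median 28.6), and 2, 8 and 19 of its 20 kept members (10%, 40% and 95%) lay over the highest of the other 10, against 38.3%, 65.7% and 67.4% of all genes kept. The trypsinogen gene prss1 was at 3.5, 3.55 and 120.1 CPM against 0.845 to 10.4 (median 5.85) CPM, and the elastase gene cela1 (ENSDARG00000017314) at 1.42, 3.35 and 107 CPM against 0.545 to 6.7 (median 3.83) CPM. Only tert-/- replicate 1 stood apart for both. The amylase gene amy2a was the 1 member above in all 3, at 1.04, 2.81 and 14.1 CPM (at most 0.47). The pancreatic transcription factor gene ptf1a was at 0, 0.134 and 0.0343 CPM (at most 0.0842). Kidney and interrenal genes summed to 69.8, 115 and 244 CPM against 40.5 to 127 CPM. Of its 28 members 25%, 25% and 71.4% lay over the highest, under the share of all genes in the first 2 libraries and near it in tert-/- replicate 1. The phosphate transporter gene slc34a1 (ENSDARG00000028824) of the proximal tubule lay at 1.89, 4.02 and 14.9 CPM (at most 0.904), and nphs1 of the glomerular filter at 0.945, 2.41 and 4.43 CPM (at most 0.302).

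The sums of the liver, brain and nerve, skin, fibroblast, blood and bone lists lay inside the range of the other 10 in each of the 3. Adipocyte genes summed to 101.6, 281.8 and 315.7 CPM against 103.3 to 219.1 CPM, outside the range in all 3. Intestine genes summed to 79.8, 129.6 and 151.6 CPM against 64.6 to 135.9 CPM, with tert-/- replicate 1 above. Liver genes summed to 740, 561 and 645 CPM against 302 to 940 CPM, and 35.9%, 12.8% and 33.3% of 39 members lay over the highest, a lower share than that of all genes in each library. Leukocyte genes summed to 302, 422 and 688 CPM against 169 to 448 CPM, so that tert-/- replicate 1 was above. Endothelial and mural genes summed to 423, 1139 and 1018 CPM against 526 to 1039 CPM, with 52.3% of 44 members under the lowest in wild type replicate 5, against 15.3% of all genes, and 40.9% over the highest in tert+/- replicate 1, against 65.7%. With TMM factors 18 of the 44 lay below in each of the 3 (40.9%, against 10.5% of all genes), and none did on plain CPM. Single members of other lists lay above, among them the fatty acid synthase gene fasn at 21.2, 27.6 and 67.1 CPM (at most 11.8) and the lipid carrier gene fabp7 (ENSDARG00000007697) at 33.7, 14.1 and 26.3 CPM (at most 11.6). The membrane skeleton gene epb41 lay at 7.09, 11.9 and 16.3 CPM (at most 1.33). With TMM factors fabp7 overlapped the other 10.

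**Figure D5:**
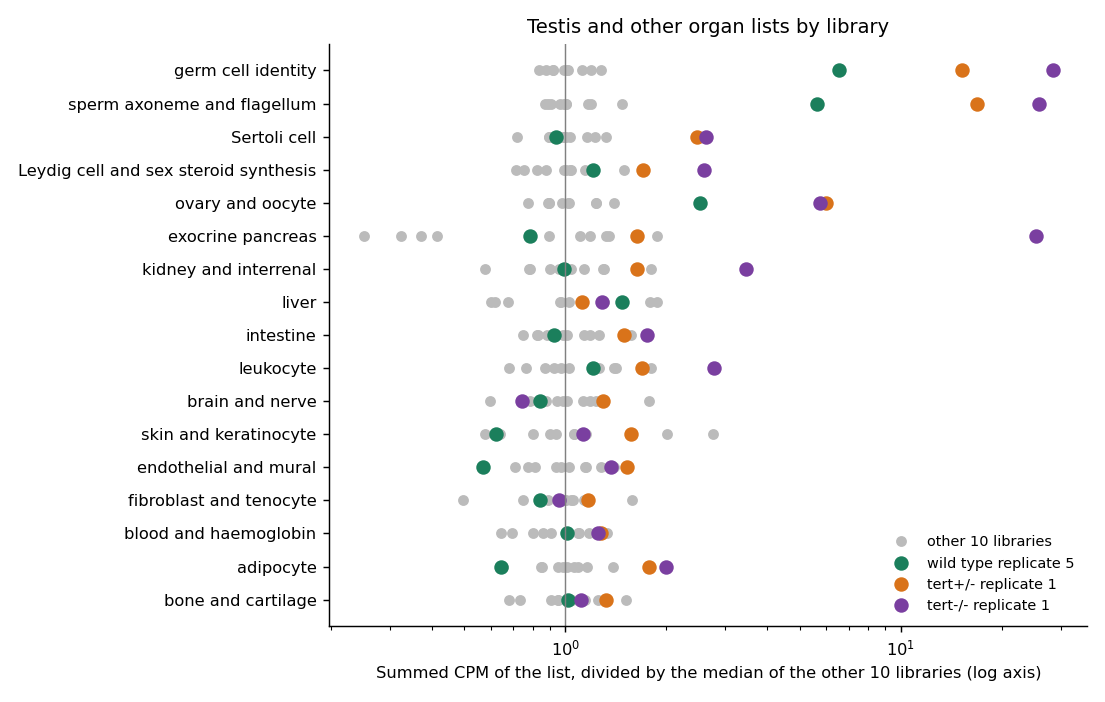
Summed CPM of 5 gonad lists and 12 lists of other organs and cell types in each library, divided by the median of the other 10 libraries (log axis), with the other 10 as grey points. Germ cell identity genes are at 6.56, 15.3 and 28.5 times the median in the 3. In tert-/- replicate 1 pancreas genes are at 25.4 times and kidney genes at 3.47 times it. All 3 libraries lie within the span of the grey points for liver, brain and nerve, skin, fibroblast, blood and bone lists.

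Each genotype held 1 of the 3 libraries, so the genotype comparisons were made with and without them. These ask whether loss of 1 or both copies of tert changed expression in muscle, by edgeR's quasi-likelihood test with Benjamini-Hochberg adjustment. With all 13 libraries, 0 of 19407 genes (0%) passed in tert-/- against wild type, 0 (0%) in tert+/- against wild type and 0 (0%) in tert-/- against tert+/-, while 496, 557 and 284 had an unadjusted p under 0.05. DESeq2 called 1, 0 and 1 gene. The gene was nlrc8 in both comparisons, chosen after its values were seen, which was at 0 in the 3 tert-/- libraries and in 2 wild type and 2 tert+/- libraries, and at 0.0243 to 22.8 CPM in the others. Without the 3 libraries, edgeR called 0 of 17970 genes in each comparison, and 609, 1610 and 464 had an unadjusted p under 0.05. DESeq2 then called 0, 42 and 0. Of the 42, 0 were in a testis list, but these lists made up only 274 of the 17970 genes, too few for that 0 to be read as a result. Of the 42, 5 were among the genes above in the 3 libraries, against 32.2% of all genes kept. The common dispersion of the counts was 0.409 with the 3 and 0.14 without them, a coefficient of variation between libraries of 63.9% with the 3 and 37.4% without them.

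Testis genes varied within each genotype. In tert-/- against wild type, the mean of ddx4 was 142 ± 246 CPM (SD, n = 3) in the former and 23.7 ± 51.9 CPM (SD, n = 5) in the latter, a log2 fold change of 1.49 (SE 2.56) with an adjusted p = 0.992 by edgeR. Without the 3 libraries it was −2.88 (SE 2.13). In tert+/- ddx4 had a mean of 37.2 ± 80.1 CPM (SD, n = 5). The SD exceeded the mean in each genotype, which follows from the choice of 1 library of each genotype by this gene. Of 317 genes of the 9 testis lists tested, 276 had a positive fold change in tert-/- against wild type with all 13 libraries (median 1.33, median SE 1.45), and 78 of 274 without the 3 (median −0.25). Of the 317, these 274 passed the filter without the 3. Over all genes tested, 9248 of 19407 were positive with all 13 and 8481 of 17970 without the 3. The median of the testis lists turned its direction. In tert+/- against wild type 259 of 317 were positive with all 13 (median 0.54) and 204 of 274 without the 3 (median 0.67), of which 61 (22.3%) had an unadjusted p under 0.05, against 8.96% of all genes tested. In tert-/- against wild type without the 3 it was 8 (2.92%), against 3.39% of all genes. In tert-/- against tert+/-, which shares its tert+/- libraries with the former, 261 of 317 were positive (median 0.67) and 56 of 274 without the 3 (median −0.80), where 61 (22.3%) had an unadjusted p under 0.05, against 2.58% of all genes. Over all genes tested with all 13, 9749 of 19407 were positive in tert+/- against wild type and 9757 in tert-/- against tert+/-. Without the 3 these were 9062 and 8784 of 17970. None of the genes of the testis lists was called in either fit by edgeR. The libraries with traces of testis genes, wild type replicate 1 and tert+/- replicates 4 and 5, were among those 10.

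Mean levels of the tert transcript were 5.79 ± 1.65 CPM (SD, n = 5) in wild type, 7.55 ± 4.62 CPM (SD, n = 5) in tert+/- and 4.17 ± 0.798 CPM (SD, n = 3) in tert-/-. Its log2 fold change in tert-/- against wild type was −0.77 (SE 0.34) with an adjusted p = 0.992 by edgeR, and −0.39 (SE 0.29) without the 3 libraries. Without tert+/- replicate 1, whose tert level of 15.8 CPM was the highest, the 4 other tert+/- libraries had a mean of 5.49 ± 0.209 CPM (SD, n = 4).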

How the data were processed

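Muscle of male AB zebrafish was profiled with Illumina's TruSeq RNA v2 kit in 13 libraries, grouped by the genotype in their labels and numbered in the order of the sample records. The submitters' processing notes name bcl2fastq 1.8.4 for demultiplexing, alignment by STAR 2.4.1d with GRCz10, and featureCounts 1.4.6-p4 for counting. The authors deposited whole-number counts per gene, not normalized, and RPKM values. The RPKM values were made by the authors with the 13 library totals applied in turn down the table, as tested over 2227 genes, so they served here only to recover gene lengths. The strand setting, the annotation release and the handling of multi-mapping reads were each not given in the sources used here, so reads of overlapping or antisense genes and near-identical copies cannot be told apart.

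Of 32105 genes in the table, 26269 (81.8%) were paired with a symbol, printed in lower case. Genes were kept by the default edgeR filter with the genotypes (19407). Levels are plain CPM, without TMM factors unless stated, and log2 values use a pseudocount of 0.5. Total counts ranged from 10585558 in wild type replicate 5, where low levels are least precise, to 47492321. The comparison of 3 libraries against 10 was chosen by ddx4 and is a description. Genotypes were compared with edgeR 4.0.16 (R 4.3.3), all 13 libraries in 1 fit, called at an adjusted p under 0.05, and with DESeq2 1.42.0 as an alternative. Scripts were tested on simulated data. Whether replicates came from separate tanks or clutches is not stated, so p-values measure the spread between these libraries only.

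Genes were named by a rule: the markers and tert, the first 3 entries of each list, up to 4 members per list at its extremes, and 15 genes by difference and 10 by level in each direction. Others were chosen after their values were seen. The libraries, the 36 lists (1575 entries, of which 1326 matched) and the rule were chosen with earlier results of these data known. Alternatives were other scalings, filters, pseudocounts, tools and left-out libraries. No sequence was printed, and some named genes are not reported here.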

Additional observations from a re-analysis of the deposited data

Results flagged for a closer look

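In 74 groups of 4 or 5 libraries of 1 genotype, 27 held a library far from the others. The rule marks a gap that chance gives in about 1 of 20 separate groups. These groups share libraries, so that rate does not apply to their number. Of the 27, 10 concern wild type replicate 5 and 16 tert+/- replicate 1, both chosen by ddx4. For testis lists the gap follows from that choice, and for other lists high in the same libraries it cannot be told apart from it. Wild type replicate 5 was apart from the other wild types in its share of counts in germ cell identity (0.0284%), piRNA pathway (0.0488%), meiosis (0.0592%), axoneme (0.139%), intraflagellar transport (0.0302%), ciliary transcription factor (0.0129%), cell cycle (0.0863%), DNA repair (0.0691%) and telomere maintenance genes (0.0272%), and in its total of 10585558 counts. Wild type replicate 1 was apart in intestine genes (0.0136%).

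Among tert+/- libraries, replicate 1 was apart in germ cell identity (0.0661%), piRNA pathway (0.105%), meiosis (0.192%), axoneme (0.418%), intraflagellar transport (0.0904%), ciliary transcription factor (0.0469%), fusion (0.0282%), Sertoli cell (0.0683%), ovary (0.0176%), cell cycle (0.228%), DNA repair (0.148%) and telomere maintenance genes (0.0587%). The same library was apart in phototransduction (0.0109%), fast muscle fibre (31.9%, against 50.1% to 55.3% in the other 4), mitochondrially encoded (18.3%, against 8.6% to 10.7%) and adipocyte genes (0.0282%). The 3 tert-/- libraries were too few for this check.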

How the results depend on the processing

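The genes above the other 10 libraries, 6257 on plain CPM, numbered 3366 with TMM factors and 3670 with DESeq2 size factors, and 6289 to 10890 where 1 library was left out, the highest without wild type replicate 5. The genes below the other 10 libraries, 43 on plain CPM, numbered 2043 with TMM factors, 1568 with DESeq2 size factors and 5 relative to the summed fast fibre genes, and 43 to 224 where 1 library was left out (100 without wild type replicate 1, 183 without tert+/- replicate 1, 224 without tert-/- replicate 1 and 80 without wild type replicate 5). TMM factors turned the sign of the median log2 difference of 12 of 36 lists and of 30 of 257 named genes, the fast fibre scale of 5 lists and 23 genes. Pseudocounts of 0.1 and 2 turned no list median, and 3 and 1 named genes. Without wild type replicate 5, tert+/- replicate 1 or tert-/- replicate 1, 3, 2 and 2 list medians turned.

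In the genotype comparisons edgeR called 0 genes under each alternative run and 0 to 0 where 1 library was left out. DESeq2 called 1 gene in tert-/- against wild type and 1 in tert-/- against tert+/-. Without the 3 libraries, an alternative added after seeing the data, it called 42 in tert+/- against wild type. No paired analysis was possible because replicate numbers only follow the order of the sample records. Depth limits wild type replicate 5 most, and with 1 library of each genotype the differences among the 3 have no replicate.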
